A study of Mus musculus with 18 samples.

Results

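The 10 Bcl2 family apoptosis genes described here were Bcl2, Bcl2l1, Bcl2l2, Mcl1, Bax, Bak1, Bcl2l11, Bbc3, Pmaip1 and Bid. They were taken by gene symbol from an mRNA-seq table of 55450 genes, and each symbol had 1 row. Expression was measured as TPM, a unit of relative transcript abundance that is corrected for transcript length and scaled to a fixed total, in 18 samples of 3 lines of P19, a mouse embryonic carcinoma cell line. WT cells carried Dicer (+/+), HetKO cells Dicer (+/-) and HM cells Dicer (HM/-), with 6 samples of each. HetKO cells carried a frameshift truncation on one Dicer1 allele, made with CRISPR guide RNAs. HM cells were derived from HetKO cells by editing the remaining allele to a hotspot mutation of the RNase IIIb domain, so both edited lines shared the truncated allele. No treatment is named in the labels. Each genotype was 1 line, so effects of the Dicer1 alleles and of the cloning cannot be told apart. Nothing in the labels states that samples of a line came from separate cultures, so p-values measure only the spread between these samples, which may be technical.

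Bcl2 family proteins control the mitochondrial pathway of apoptosis. Bax and Bak1 are the effectors that permeabilize the mitochondrial outer membrane. Bcl2, Bcl2l1 (Bcl-xL), Bcl2l2 (Bcl-w) and Mcl1 are anti-apoptotic and hold them in check. Bcl2l11 (Bim), Bbc3 (Puma), Pmaip1 (Noxa) and Bid are BH3-only proteins, which bind the anti-apoptotic proteins or activate the effectors. Several of these mRNAs are known miRNA targets, and Dicer cuts miRNA precursors, with its RNase IIIb domain needed for the 5p strand.

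The line comparison concerns Dicer, so the 3′ UTRs of the members were searched for matches to miRNA seeds (bases 2 to 8). The seeds were those of 13 of the miRNAs that were followed in the study. Others that the paper followed, such as the miRNA it tested on the Gid4 and Ptpn21 3′ UTRs, were not searched. The miRNA sequences are RefSeq's for GRCm38.p6, and all 13 were matched. The 5p miRNAs whose sites are shown next are written 5′ to 3′ with the seed in capitals, and they fall into 3 seed groups.
miR-15b-5p: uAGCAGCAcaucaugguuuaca
miR-16-5p: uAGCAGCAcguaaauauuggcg
miR-17-5p: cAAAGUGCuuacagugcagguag
miR-20b-5p: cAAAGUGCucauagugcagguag
miR-26a-5p: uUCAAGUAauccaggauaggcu

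The match searched for is the reverse complement of the seed on the transcript strand, TGCTGCT for miR-15b-5p and miR-16-5p, GCACTTT for miR-17-5p and miR-20b-5p and TACTTGA for miR-26a-5p. The 3′ UTRs were those of the GENCODE M21 annotation on GRCm38. The letters of the first group were present in 2 of 10 members and in 22.2% of 21163 3′ UTRs. Those of the second were present in 5 of 10 members (Bcl2, Bcl2l2, Mcl1, Bcl2l11 and Bid) and in 12.2% of all UTRs. Those of the third were present in 3 of 10 members and in 9.97% of all UTRs. Sites are shown for Mcl1, Bak1 and Bcl2l2, which were called in HM cells, for Bcl2l11, which spread most within a line, and for Bcl2, a well-known target of the miR-16 family. They are written on the transcript strand with the match in capitals.
Mcl1, GCACTTT, chr3:95662635-95662657, plus strand: acttcagaGCACTTTatgtagtt
Mcl1, TACTTGA, chr3:95661439-95661461, plus strand: ccaaaaagTACTTGActtaaggt
Bcl2l11, GCACTTT, chr2:128160444-128160466, plus strand: cgactggaGCACTTTactgtctc
Bcl2l2, TGCTGCT, chr14:54886862-54886884, plus strand: gctaacatTGCTGCTctttaatg
Bcl2, TGCTGCT, chr1:106540791-106540813, minus strand: aaaccctgTGCTGCTatcctgcc
Bak1, TACTTGA, chr17:27019978-27020000, minus strand: cctatgatTACTTGAaccccacc

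Bcl2l2 held 4 TGCTGCT matches, of which 2 overlapped, and Bcl2l11 held 2 GCACTTT matches. Longer UTRs hold more matches by length alone. Among UTRs within 20% of the length of that of Mcl1 (2353 bases), 18.5% held GCACTTT and 14.6% held TACTTGA. For GCACTTT the share was 36.1% at the length of Bcl2, 29.5% at that of Bcl2l11, 24.4% at that of Bcl2l2 and 13.7% at that of Bid. Over all 13 miRNAs, 7 of 10 members held a match, and Bcl2l1, Bax and Bbc3 held none. Of the passenger 3p strands, the miR-15b-3p match ATGATTC was present in Bcl2l2 and Mcl1, the miR-17-3p and miR-20b-3p match ACTGCAG in Bcl2l11 and Pmaip1, and the miR-7a-1-3p match ATTTGTT in Bcl2l11. The miR-26a-2-3p match AGAACAG was present in 6 of 10 members (Bcl2, Bcl2l2, Bak1, Bcl2l11, Pmaip1 and Bid) and in 15.9% of all UTRs, and in 15.1% (Bak1) to 47.6% (Bcl2) of UTRs of a length like those of these members. A match is a run of letters and not a measured site, and miRNA levels are not part of the values used here.

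Dicer1 mRNA ranged from 49.2 to 54.8 TPM in WT, from 42.9 to 53.8 TPM in HetKO and from 35.4 to 44.2 TPM in HM cells, and these mRNA levels do not check the edited alleles. All 7 pluripotency markers had a mean of at least 1 TPM in each line, and their sum, most of which was Pou5f1, lay between 2869 and 3668 TPM in every sample. Sall4, the lowest of the 7 in each line and singled out after its values were seen, had means of 24.5 TPM in WT, 46.7 TPM in HetKO and 8.85 TPM in HM cells. The mesoderm markers were summed to 7.09 to 12.1 TPM in WT, 4.04 to 114.5 TPM in HetKO and 14.7 to 44.3 TPM in HM samples, and their part in the results was not tested. In each line the 6 samples fell into 3 pairs of most alike samples. WT and HetKO samples paired as 1 with 4, 2 with 5 and 3 with 6, and HM samples as 1 with 4, 2 with 3 and 5 with 6. The log2 values of 683 abundant genes (mean TPM of 200 or more) differed with a robust SD of 0.049 to 0.105 within these pairs, and between samples of different pairs it was 0.073 to 0.358. HetKO samples 2 and 5 and HM samples 2 and 3 stood apart from the rest of their line in several members, so results are also given without them.

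Within WT cells the levels of the members spanned a wide range. Bax was the highest at 180.6 ± 3.50 TPM (SD, n = 6), followed by Mcl1 at 84.5 ± 4.38 TPM, Bak1 at 40.9 ± 4.75 TPM and Bid at 23.2 ± 1.24 TPM, with no overlap of samples between neighbors in this order. Bbc3 (17.5 ± 1.26 TPM) and Bcl2l2 (15.5 ± 0.824 TPM) overlapped in their samples. Bcl2l1 (12.6 ± 0.788 TPM) was below Bcl2l2 without overlap. Bcl2l11 (8.15 ± 2.42 TPM), Pmaip1 (4.33 ± 1.41 TPM) and Bcl2 (2.38 ± 0.559 TPM) came last, each overlapping the next. The order in HetKO cells differed in its lower ranks, where every neighboring pair from Bcl2l1 down to Bcl2 overlapped. In HM cells Mcl1 reached the range of Bax, and Pmaip1 moved below Bcl2 to the last rank.

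**Figure D1:**
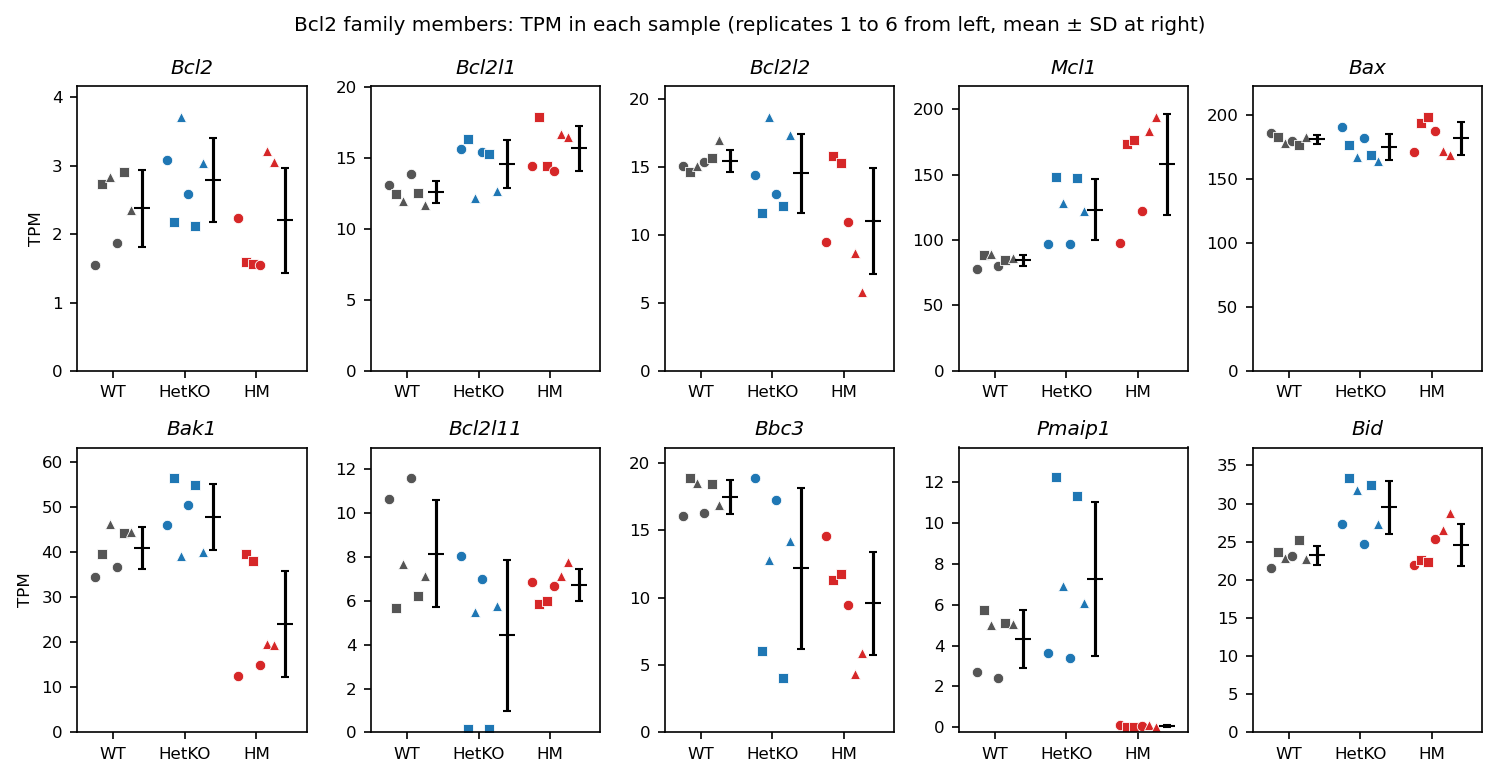
TPM of the 10 genes in every sample of WT (grey), HetKO (blue) and HM (red) cells. Points run from replicate 1 to 6 from left to right, symbols mark the pairs of most alike samples, and the bar at the right of each group is the mean ± SD (n = 6). Pmaip1 is at or below 0.13 TPM in every HM sample, and Bcl2l11 is at 0.14 TPM in HetKO samples 2 and 5.

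HM cells had higher Mcl1 and Bcl2l1 and lower Pmaip1, Bbc3, Bak1 and Bcl2l2 mRNA than WT cells. Bcl2, Bax, Bcl2l11 and Bid did not pass the test. The question put to the comparison was how the hotspot line differs from unedited cells. All 10 members passed the filter on low values (a mean of at least 1 TPM over both lines of a comparison). Pmaip1, with a mean of 0.06 TPM in HM cells, passed only through the other line in both comparisons with HM. In HM against WT 6 of 10 members were called at an adjusted p under 0.05 by limma on log2(TPM + 1), 2 higher and 4 lower. Of all 14043 genes tested, 51.4% were called, 19.4% higher and 32.0% lower, so the share of members called was near the background. The HM and WT samples did not overlap for 4 members (Mcl1, Bcl2l1, Bbc3 and Pmaip1), and for 28.5% of all genes. The median log2 difference was -0.15 over the members and -0.09 over all genes. With samples centered on their median, 4 members were called higher and 3 lower. With the means of alike pairs as 3 replicates a line, only Mcl1 and Pmaip1 were called. HM samples 2 and 3 lay within the WT range for Bak1 and Bcl2l2. In bulk RNA a lower value in every cell and a loss in some of the cells cannot be told apart.

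HetKO cells had higher Mcl1 and Bid than WT cells, and no member was lower at the threshold of limma's adjusted p (2 were at an unadjusted p under 0.05, Bcl2l11 and Bbc3). This comparison shows how cells with the truncated allele alone differ from unedited cells. The 2 calls stood beside 10.2% called among 13999 genes (3.71% higher, 6.44% lower). Mcl1 alone had no overlap between HetKO and WT samples, against 8.21% of all genes. The median log2 difference of the members was 0.18, against -0.03 over all genes. Without HetKO samples 2 and 5 only Mcl1 was called. No member was called by limma on pair means (2 at an unadjusted p under 0.05) or by an unequal-variance test (3 at an unadjusted p under 0.05).

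HM cells had lower Pmaip1 and Bak1 than the HetKO cells from which they were derived, and no member was higher at the threshold of limma's adjusted p, nor at an unadjusted p under 0.05. Here 2 of 10 members were called, against 34.6% of 13762 genes (14.0% higher, 20.6% lower). Pmaip1 was the only member without overlap, against 15.5% of all genes. The member median was -0.25 and that of all genes -0.05. With the means of alike pairs only Pmaip1 was called. The 3 comparisons share samples, so their values are given side by side and are not independent.

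**Figure D2:**
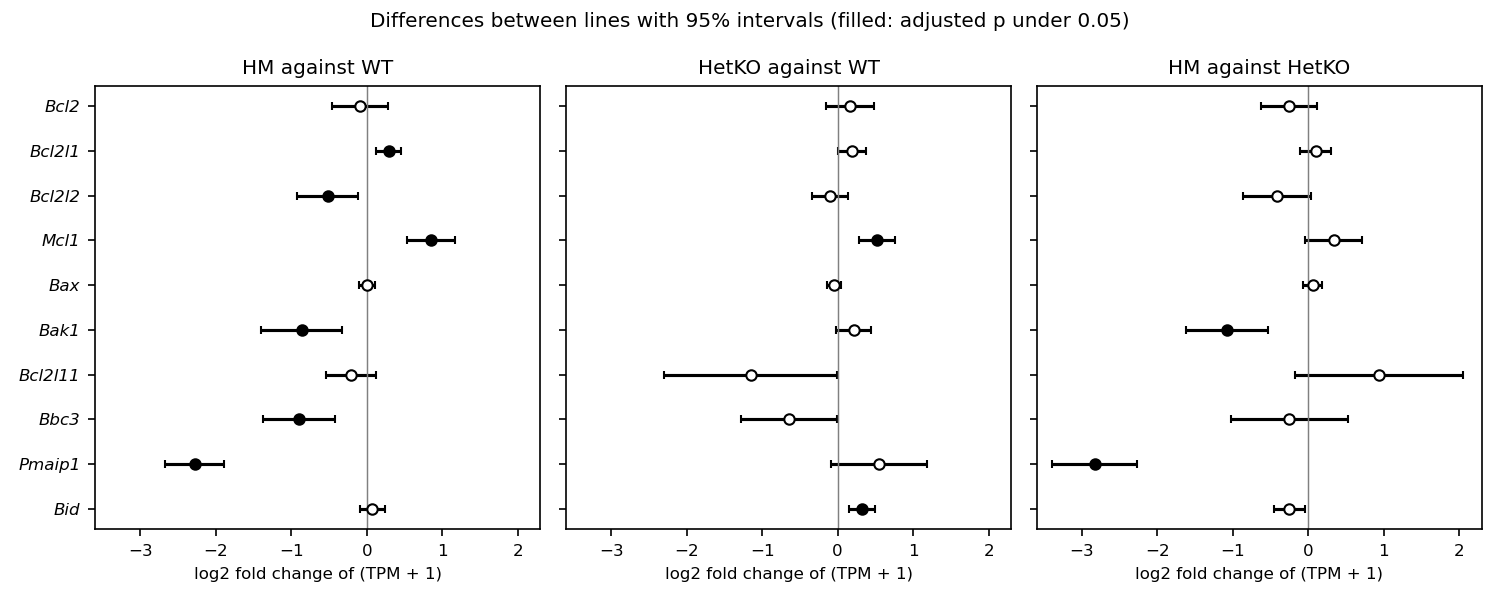
Difference in log2(TPM + 1) of each gene between lines (points) with its 95% interval (bars) from limma, for HM against WT, HetKO against WT and HM against HetKO. Filled points have an adjusted p under 0.05. The largest differences are those of Pmaip1, at -2.28 against WT and -2.83 against HetKO, while the intervals of Bax lie close to 0 in all 3 panels.

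Among the anti-apoptotic members, Mcl1 (ENSMUSG00000038612.16, chr3:95658788-95663176, GRCm38 as for all positions here) rose in both edited lines. Mcl1 protein is short-lived and binds Bak1, Bcl2l11 and Pmaip1. Its level was 78.1 to 89.3 TPM in WT samples, with a median of 85.4. It was 96.7 to 148.4 TPM in HetKO samples, with a median of 125.3, and 97.8 to 194.4 TPM in HM samples, with a median of 174.9. Every HetKO and HM sample was above every WT sample, and the HetKO and HM samples overlapped. The means were 1.46 times that of WT in HetKO and 1.87 times in HM cells. The log2 difference was 0.85 (SE 0.15, adjusted p = 0.000448 by limma) in HM and 0.52 (SE 0.11, adjusted p = 0.00942 by limma) in HetKO cells. Between HM and HetKO cells it was 0.33 (95% interval -0.05 to 0.71, adjusted p = 0.158 by limma). The spread within lines followed the alike pairs. HetKO samples 1 and 4 were both at 96.7 TPM and samples 2 and 5 were at 148.4 and 147.5 TPM, while HM samples 1 and 4 were at 97.8 and 122.2 TPM and the other 4 at 173.6 TPM or more. With the means of alike pairs as 3 replicates a line, the HetKO difference was no longer called (adjusted p = 0.310 by limma), nor with an unequal-variance test (adjusted p = 0.0626).

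Bcl2l1 (ENSMUSG00000007659.18, chr2:152780668-152831728) encodes Bcl-xL, which restrains both effectors. Levels in WT samples ranged from 11.7 to 13.9 TPM (median 12.5), HetKO samples from 12.2 to 16.3 TPM (median 15.3) and HM samples from 14.1 to 17.9 TPM (median 15.5). All HM samples were above all WT samples, and HetKO samples overlapped both. The log2 difference between HM and WT cells was 0.29 (SE 0.08, adjusted p = 0.00597 by limma), a ratio of means of 1.24. It was not called with the means of alike pairs (adjusted p = 0.104 by limma). The value for HetKO against WT was 0.19 (95% interval 0.01 to 0.37, adjusted p = 0.157 by limma).

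Bcl2l2 (ENSMUSG00000089682.10, chr14:54883377-54888234), which encodes Bcl-w, spread widely in HM cells. Its TPM was 14.6 to 17.0 in WT samples (median 15.2), 11.6 to 18.7 in HetKO samples (median 13.7) and 5.82 to 15.8 in HM samples (median 10.2). HM samples 2 and 3, at 15.8 and 15.3 TPM, lay within the WT range, and the other 4 HM samples lay below every WT sample. The log2 difference between HM and WT cells was -0.52 (SE 0.18, adjusted p = 0.0307 by limma), and it lost the call with centered, quantile normalized or unfiltered values, pair means or an unequal-variance test (adjusted p from 0.0624 to 0.150). Bcl2l2 shares its strand and part of its locus with the gene model Gm20521 (means of 1.48 to 2.90 TPM in the 3 lines), so the split of reads between them is uncertain.

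Bcl2 (ENSMUSG00000057329.7, chr1:106538178-106714274), the founding member, was the lowest anti-apoptotic transcript. In WT cells it ranged from 1.55 to 2.91 TPM (median 2.55), HetKO samples from 2.12 to 3.72 TPM (median 2.81) and HM samples from 1.55 to 3.21 TPM (median 1.91). The 3 ranges overlapped. The log2 difference was -0.09 for HM against WT (95% interval -0.46 to 0.28) and 0.17 for HetKO against WT (95% interval -0.15 to 0.49), and neither passed the test.

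Of the effectors, Bax (ENSMUSG00000003873.11, chr7:45461697-45466898) was the steadiest member. Its WT values ranged from 176.0 to 185.3 TPM (median 180.9), HetKO samples from 164.1 to 190.3 TPM (median 172.4) and HM samples from 168.5 to 198.5 TPM (median 179.2). The HM and HetKO ranges both enclosed the WT range. The log2 difference was 0.01 for HM against WT (95% interval -0.10 to 0.11) and -0.05 for HetKO against WT (95% interval -0.14 to 0.05). The TPM scale bears on this value, since with samples centered on their median Bax was called higher in HM than in WT cells (0.18, adjusted p = 0.00923 by limma).

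Bak1 (ENSMUSG00000057789.14, chr17:27019810-27029009), the second effector, fell in HM cells in 4 of 6 samples. It ranged in WT samples from 34.4 to 46.1 TPM (median 41.9) and HetKO samples from 39.2 to 56.4 TPM (median 48.2). HM samples ranged from 12.6 to 39.6 TPM (median 19.5). HM samples 1, 4, 5 and 6 lay between 12.6 and 19.6 TPM, below every WT and HetKO sample, and HM samples 2 and 3 lay at 39.6 and 38.0 TPM, within the WT range. The log2 difference was -0.86 against WT (SE 0.25, adjusted p = 0.0105 by limma) and -1.08 against HetKO (SE 0.25, adjusted p = 0.00662 by limma). Without HM samples 2 and 3 it was -1.26 against WT and -1.47 against HetKO, and with pair means neither was called (adjusted p = 0.0953 and 0.127 by limma). The median of 197 genes within 5 Mb of Bak1 differed between HM and WT cells by -0.18, and in HM samples 1, 4, 5 and 6 it lay between -0.25 and -0.10 relative to the WT mean. Ggnbp1 overlaps Bak1 on the opposite strand and has 2 rows. The higher row ranged from 6.28 to 12.1 TPM in WT, 4.13 to 14.8 TPM in HetKO and 2.26 to 6.35 TPM in HM samples. Its mean was thus lower in HM cells (4.61 TPM) than in WT cells (9.21 TPM), as for Bak1. The lower row ranged from 1.38 to 2.18 TPM in WT, 1.39 to 3.47 TPM in HetKO and 0.96 to 2.61 TPM in HM samples. The strand setting of the quantification is not given in the sources used here, so reads from the shared part may not be told apart.

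Among the BH3-only members, Pmaip1 (ENSMUSG00000024521.8, chr18:66458533-66465565) encodes Noxa, which binds Mcl1 and promotes its turnover. Levels of 2.39 to 5.75 TPM (median 5.02) were found in WT and of 3.41 to 12.2 TPM (median 6.49) in HetKO samples. HM samples ranged from 0 to 0.13 TPM (median 0.06), and 2 of them were listed at 0. No HM sample approached the lowest WT or HetKO sample. The ratio of the means was 68.4 between WT and HM and 114.6 between HetKO and HM cells, and both ratios rest on HM values of a few hundredths of a TPM at unknown depth. The log2 difference was -2.28 against WT (SE 0.18, adjusted p = 2.67e-06 by limma) and -2.83 against HetKO (SE 0.26, adjusted p = 8.14e-06 by limma), with the pseudocount of 1 compressing both. With a pseudocount of 0.1 the values were -4.77 and -5.41. Both calls held under the alternatives that kept this gene, while the filter of at least 5 TPM left it out. Pmaip1 passed the filter of 1 TPM only through the WT or HetKO samples, so the p-values add no support beyond the listed values.

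The nearest expressed genes on each side of Pmaip1 were all detected in HM cells. Ccbe1, 413 kb below, ranged from 1.27 to 2.53 TPM in HM and from 1.61 to 2.16 TPM in WT samples. Lman1, 478 kb below, ranged from 56.8 to 68.1 TPM in HM and from 70.5 to 82.0 TPM in WT samples. Gnal, 630 kb above, ranged from 0.58 to 1.70 TPM in HM (median 1.16) and from 1.44 to 2.89 TPM in WT samples (median 2.10). Chmp1b, 747 kb above, ranged from 16.8 to 24.0 TPM in HM and from 17.6 to 19.7 TPM in WT samples. The median difference of 46 genes within 5 Mb of Pmaip1 was -0.15. In HetKO cells Pmaip1 was highest in samples 2 and 5 (12.2 and 11.3 TPM) and lowest in samples 1 and 4 (3.62 and 3.41 TPM), and the difference from WT was 0.55 (95% interval -0.08 to 1.19, adjusted p = 0.242 by limma).

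Bbc3 (ENSMUSG00000002083.13, chr7:16308393-16318205) encodes Puma, a p53 target that binds all anti-apoptotic members. WT samples ranged from 16.0 to 18.9 TPM (median 17.7), HetKO samples from 4.06 to 18.9 TPM (median 13.5) and HM samples from 4.37 to 14.6 TPM (median 10.4). All HM samples were below all WT samples. HetKO samples 2 and 5, at 6.04 and 4.06 TPM, lay far below the other HetKO samples, which held 12.8 TPM or more. The log2 difference between HM and WT cells was -0.90 (SE 0.22, adjusted p = 0.00426 by limma), and with pair means the adjusted p was 0.0573. For HetKO against WT the value was -0.65 (95% interval -1.28 to -0.01, adjusted p = 0.173 by limma), and without HetKO samples 2 and 5 Bbc3 was also called lower in HM than in HetKO cells (-0.74, adjusted p = 0.0464 by limma).

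Bcl2l11 (ENSMUSG00000027381.16, chr2:128126038-128162547) encodes Bim, an activator of both effectors. The WT level ranged from 5.68 to 11.6 TPM (median 7.39) and HM samples from 5.85 to 7.78 TPM (median 6.78). HetKO samples ranged from 0.14 to 8.06 TPM (median 5.62), and samples 2 and 5 were both at 0.14 TPM while the other 4 lay between 5.49 and 8.06 TPM. The HetKO difference of -1.15 (95% interval -2.30 to -0.01, adjusted p = 0.178 by limma) became -0.25 without these 2 samples. Bub1 and Mtln, the nearest expressed genes below Bcl2l11 at 325 and 335 kb, ranged down to 81.9 and 3.55 TPM in HetKO cells, against at least 176.7 and 7.42 TPM in WT cells. Above it, Anapc1 (484 kb) ranged from 87.0 to 123.2 TPM in HetKO and from 94.6 to 131.0 TPM in WT samples. The median of the genes within 5 Mb was -0.01 and -0.02 in HetKO samples 2 and 5 relative to the WT mean.

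Bid (ENSMUSG00000004446.12, chr6:120891930-120916853) links caspase-8 to the mitochondrial pathway. WT samples ranged from 21.5 to 25.3 TPM (median 23.0), HetKO samples from 24.7 to 33.3 TPM (median 29.6) and HM samples from 22.0 to 28.8 TPM (median 23.9). All HetKO samples but sample 4 were above every WT sample. The log2 difference between HetKO and WT cells was 0.33 (SE 0.08, adjusted p = 0.0216 by limma), and it was not called without HetKO samples 2 and 5 (0.25, adjusted p = 0.0659 by limma), with pair means or with an unequal-variance test. HM differed from WT by 0.07 (95% interval -0.09 to 0.23). Bid overlaps Bcl2l13 on the opposite strand, and Bcl2l13 had means of 112.0 TPM in WT and HetKO and 86.8 TPM in HM cells.

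**Figure D3:**
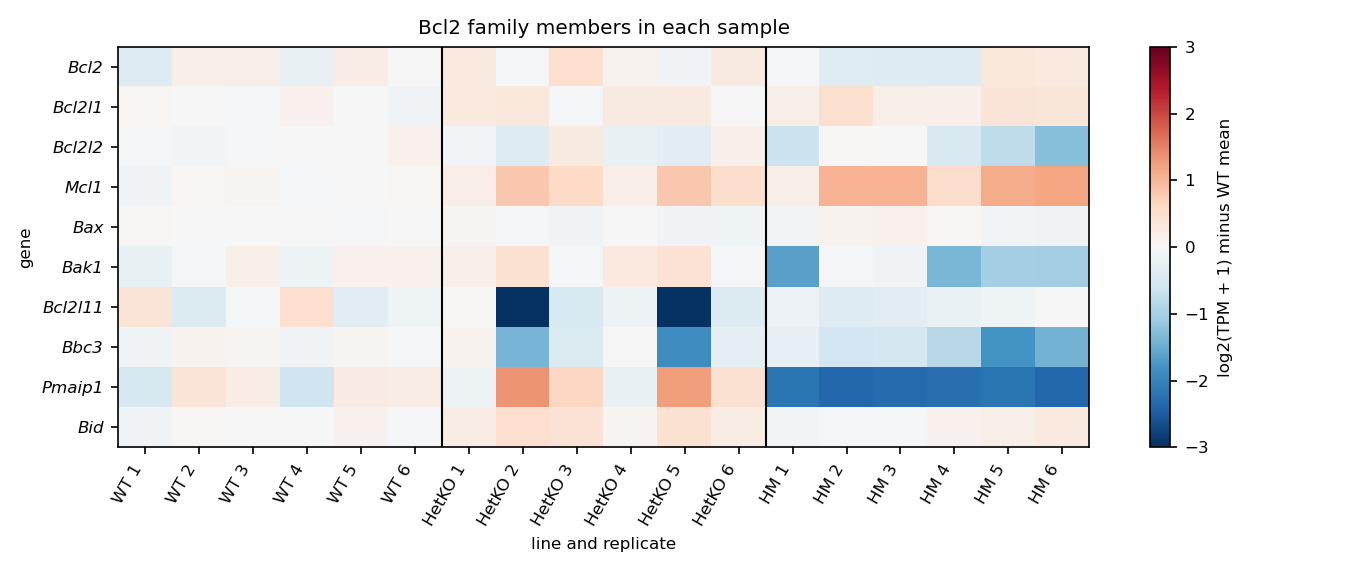
log2(TPM + 1) of each gene (rows) in each sample (columns) minus the mean of the 6 WT samples, with red above and blue below that mean. The 6 HM samples are alike in Pmaip1, at -2.19 to -2.37, whereas Bak1 is low in HM samples 1, 4, 5 and 6 only, and Bcl2l11 is at -2.96 in HetKO samples 2 and 5.

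Mcl1 lies in a stretch of chromosome 3 whose genes were shifted together in some samples. In HetKO cells the 28 genes from 5 to 0.5 Mb below the Mcl1 start had a median log2 difference from WT of -0.03. The 17 genes in the last 0.5 Mb below it had a median of 0.36, and the 14 genes in the first 0.5 Mb above it a median of 0.70. Over the 171 genes from the Mcl1 start to 120 Mb the median was 0.53, and 149 of them were above 0. The HetKO value of Mcl1, 0.52, lay close to the median of these 171 genes. By sample the likeness was looser. Relative to the WT mean, Mcl1 ran from 0.19 to 0.81 over HetKO samples, and the median of the window from 90 to 120 Mb from 0.36 to 0.48. HM samples 2 and 3 had window medians (232 genes, 90 to 120 Mb) of 0.53 and 0.54 relative to the WT mean, and the other 4 HM samples had medians of -0.18 to -0.13.

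Relative to the genes of the window from 90 to 120 Mb, Mcl1 was higher in HM than in WT cells by 0.76 (P = 0.00216, two-sided exact permutation test over 924 splits, the smallest value 6 against 6 samples can give, and 0.00649 adjusted over the 3 comparisons). Against HetKO cells the relative difference was 0.67 (exact permutation P = 0.00433, adjusted 0.00649). For HetKO against WT it was 0.09 (exact permutation P = 0.390), and it turned to -0.03 against the upper neighbors alone, an alternative chosen after the step was seen, and to -0.04 without HetKO samples 2 and 5. The relative value of every HM sample was above 0, from 0.36 in sample 1 to 1.29 in sample 6, while HetKO samples ranged from -0.23 to 0.38. HM samples 5 and 6, whose window medians were -0.14 and -0.13, had the highest relative values, 1.22 and 1.29. Without HM samples 2 and 3 the relative difference of HM from WT was 0.90 (exact permutation P = 0.00476). With 3 pair means a line it could not pass, since the smallest P is then 0.1. The window was chosen because earlier results of these data had shown its genes shifted in some of these samples. The permutation treated the samples as exchangeable, although they fell into alike pairs. The relative values also spread more in HM (SD 0.40) than in WT samples (SD 0.04).

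**Figure D4:**
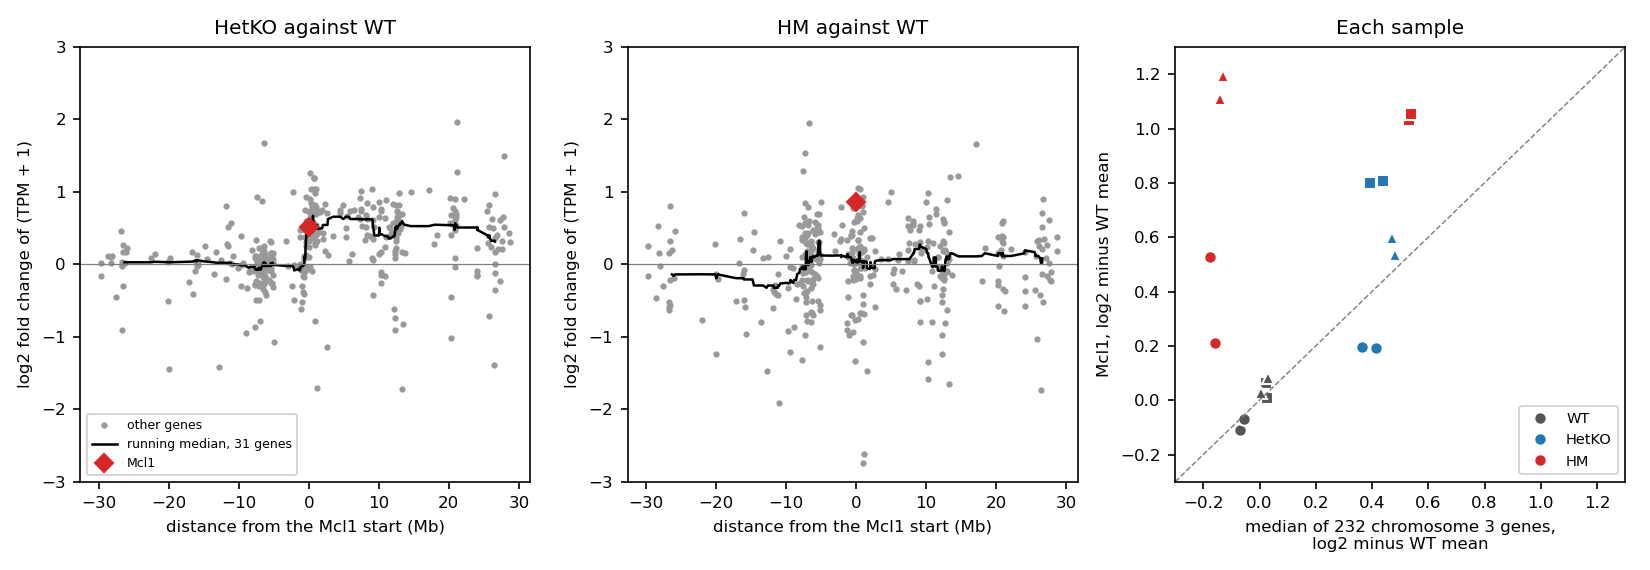
Left and middle, log2 difference of each expressed chromosome 3 gene (grey points) against its distance from the Mcl1 start in Mb, with the running median (line) and Mcl1 (red diamond), for HetKO and HM against WT. Right, Mcl1 in each sample against the median of the chromosome 3 window, both as log2 minus the WT mean, with the line of equality dashed. The HetKO median steps up close to Mcl1, and all 6 HM samples lie above the line, including the 4 whose window median is below 0.

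Summed by role, the anti-apoptotic members totaled 114.9 ± 4.35 TPM in WT, 155.2 ± 22.3 TPM in HetKO and 186.7 ± 40.1 TPM in HM cells (SD, n = 6 each). Mcl1 made up 73.5%, 79.4% and 84.5% of these sums. The effectors totaled 221.5 ± 3.87, 222.4 ± 14.0 and 205.7 ± 23.3 TPM. The BH3-only members totaled 53.2 ± 1.54 TPM in WT, 53.4 ± 3.64 TPM in HetKO and 40.9 ± 1.98 TPM in HM cells, and the HM samples (38.1 to 43.5 TPM) did not overlap the WT samples (50.9 to 55.0 TPM). Bid was the most abundant BH3-only member in each line. The sums are descriptions without a test.

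The HM against WT results are listed here by seed match, as a description of a few genes each. Of all 14043 genes tested, 19.4% were called higher and 32.0% lower. Shares among all genes with the same match were not computed, and a link between matches and differences was not tested. Of the 5 members with GCACTTT, Mcl1 was called higher in HM than in WT cells (0.85), Bcl2l2 was called lower (-0.52), and Bcl2 (-0.09), Bcl2l11 (-0.21) and Bid (0.07) were not called. Of the 3 with TACTTGA, Mcl1 was called higher, Bak1 was called lower and Bcl2l11 was not called. Of the 2 with TGCTGCT, Bcl2l2, with 4 matches, was called lower in HM cells, and Bcl2 was not called. None of the 3 with the miR-7a-5p match GTCTTCC (Bcl2, Bcl2l11 and Bid) was called. Of the 3 with the miR-92a-3p match GTGCAAT, Mcl1 was called higher, Bak1 was called lower and Bcl2l11 was not called. The miR-19b-3p match TTTGCAC was present in Bcl2l11 alone. Of the members with a passenger 3p match, both with ATGATTC were called, Mcl1 higher and Bcl2l2 lower. Of the pair with ACTGCAG, Pmaip1 was called lower (-2.28) and Bcl2l11 (-0.21), which also holds ATTTGTT, was not called. Of the 6 with AGAACAG, Bcl2l2, Bak1 and Pmaip1 were called lower, and Bcl2, Bcl2l11 and Bid were not called. Its miRNA, miR-26a-2-3p, was an exception in the paper, found with Dicer and depleted from Argonaute (AGO). Its reporter was not repressed in HM cells. Among the 3 members with no match to any of the 13 miRNAs, Bcl2l1 was called higher and Bbc3 lower, and Bax was not called.

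Around the family, 83 further apoptosis genes were listed, and 66 of them passed the filter for HM against WT. Of these 40 were called, 19 higher and 21 lower, with a median log2 difference of -0.06 beside -0.09 for all genes, of which 51.4% were called. For HetKO against WT 12 of 66 were called, 6 in each direction, beside 10.2% of all genes. For HM against HetKO 31 of 65 were called, 16 higher and 15 lower, beside 34.6% of all genes. The directions depended on the scaling, and with samples centered on their median 25 were higher and 11 lower in HM against WT, 6 and 4 in HetKO against WT and 21 and 8 in HM against HetKO. With pair means the limma counts were 14, 0 (6 at an unadjusted p under 0.05) and 1. The distribution of the lists is shown in the plot of the other apoptosis genes. The counts by list that follow stand beside the same shares of all genes. These were 19.4% higher and 32.0% lower for HM against WT, 3.71% and 6.44% for HetKO against WT, and 14.0% and 20.6% for HM against HetKO. The lists are short, and none was tested as a set.

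Of the other Bcl2 family genes, 4 of 7 tested were called in HM against WT, 1 higher and 3 lower. The BH3-only gene Bmf had a mean of 5.54 ± 2.88 TPM in HM and 12.1 ± 1.56 TPM in WT cells (log2 difference -1.12, adjusted p = 0.00324 by limma). Hrk, another BH3-only gene, differed by -0.43, and Bcl2l12 rose by 0.36. None was called in HetKO cells by limma, and 0 had an unadjusted p under 0.05 there or in the unequal-variance test, while Bad and Bcl2l13 were lower in HM than in HetKO cells (-0.49 and -0.36).

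Of 13 genes of the mitochondrial outer membrane and its released factors, 5 rose and 3 fell in HM against WT. The 3 that fell most were the BH3-like genes Bnip1 (-0.93), Bnip3 (-0.79) and Bnip3l (-0.71), of which the last 2 are best known as mitophagy receptors. Bnip3 ranged from 153.5 to 496.5 TPM in HM and from 414.3 to 568.6 TPM in WT samples, and the ranges overlapped. In HetKO cells 4 of the 13 rose and none fell, among them the channel gene Vdac3 (0.27) and Aifm1 (0.19), which encodes apoptosis-inducing factor.

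Of 10 apoptosome and caspase genes tested, 2 rose and 3 fell in HM against WT. Dffa, which encodes the inhibitor of the caspase-activated DNase, rose from 16.2 ± 1.34 TPM in WT to 30.3 ± 7.20 TPM in HM cells without overlap (0.83, adjusted p = 0.000298 by limma), and its partner Dffb, the DNase itself, rose by 0.70. Casp6 was lower (-0.90). Dffa was the only gene of this list called in HetKO cells against WT (0.33), and it was also higher in HM than in HetKO cells (0.50).

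Of the inhibitor of apoptosis genes and their antagonists, 6 of 7 tested were called in HM against WT, 4 higher and 2 lower. Sept4, whose ARTS isoform antagonizes Xiap, ranged from 1.04 to 6.40 TPM in HM and from 12.8 to 16.7 TPM in WT samples (-1.93, adjusted p = 0.000138 by limma). Birc2 (cIAP1) fell in both edited lines, to 29.1 ± 2.42 TPM in HM and 33.0 ± 3.96 TPM in HetKO from 46.8 ± 2.40 TPM in WT cells. The Xiap antagonist Xaf1 rose in HM cells (0.52 against WT and 0.65 against HetKO), Birc3 was lower in HetKO than in WT cells (-0.49), and Xiap itself was higher in HM than in HetKO cells (0.35).

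Of 9 death receptor and adaptor genes tested, 1 rose and 4 fell in HM against WT. The adaptor Fadd was 3.73 ± 0.463 TPM in HM and 2.05 ± 0.375 TPM in WT cells (0.64, adjusted p = 0.000490 by limma). Tradd (-0.54) and Cradd (-0.35) were lower. Pidd1, part of the caspase-2 platform, was the only gene of the list called in HetKO cells (-0.56). Against HetKO, Ripk3, a kinase of necroptosis, was higher in HM cells (1.40), and the TNF receptor Tnfrsf1a was lower (-0.73).

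Of 20 genes known to regulate family members, 6 rose and 6 fell in HM against WT. Mycn, a growth-promoting transcription factor that sensitizes cells to apoptosis, ranged from 52.5 to 141.1 TPM in HM and from 23.6 to 28.7 TPM in WT samples (1.50, adjusted p = 0.000430 by limma). E2f1, which can activate several BH3-only genes, fell by 0.86 against WT and by 0.90 against HetKO. Trp53, which drives transcription of Bax, Bbc3 and Pmaip1 under stress, ranged from 0.10 to 1.02 TPM in HM, from 0.24 to 1.55 TPM in HetKO and from 1.56 to 2.60 TPM in WT samples (-0.97 in HM, adjusted p = 0.000499, and -0.69 in HetKO, adjusted p = 0.0391, both by limma). Its processed copy Trp53-ps was at most 0.08 TPM. Pim1, a kinase that phosphorylates Bad, was lower in HetKO than in WT cells (-1.27) and higher in HM than in HetKO cells (0.88).

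**Figure D5:**
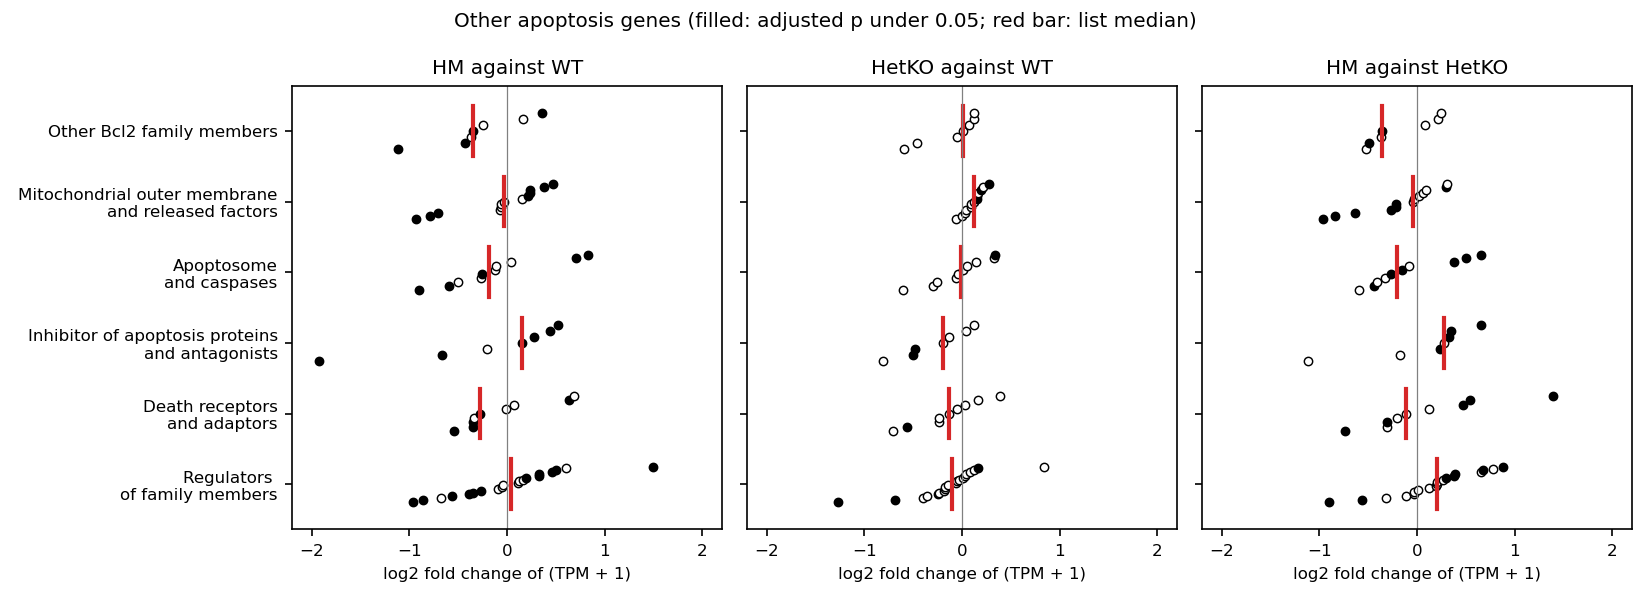
Difference in log2(TPM + 1) of each tested gene (points, filled where the adjusted p was under 0.05) in 6 lists of other apoptosis genes for the 3 comparisons, with the median of each list as a red bar. Called genes lie on both sides of 0 in all 6 lists for HM against WT.

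Across the 18 samples and 13955 genes, the 3 genes whose log2(TPM + 1) was most like that of Pmaip1 were Vps37a (Pearson r = 0.963), Ola1 (r = 0.963) and Pdgfrl (r = 0.960). All 3 were lower in HM cells without overlap, as Ola1 at 69.0 to 80.5 TPM in HM against 125.6 to 148.2 TPM in WT samples. The genes most like Mcl1 were Pdap1 (r = 0.965), Slc7a6os (r = 0.960) and Srm (r = 0.952), and none of them lies on chromosome 3. Srm, the spermidine synthase gene, ranged from 212.6 to 465.6 TPM in HM against 176.2 to 198.8 TPM in WT samples. A gene picked by likeness to a member tends to share its differences between lines through that choice. Of all genes, 28.5% had no overlap between HM and WT samples. The samples of a line share their origin, so these values describe likeness and carry no test.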

How the data were processed

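mRNA-seq libraries came from polyA RNA with a stranded kit and paired-end sequencing. Per the study's methods, the authors merged read pairs with BBMerge and quantified genes with RSEM. The submitters' processing notes also list cutadapt, STAR and build mm10, without versions. The deposited values are TPM, rounded to 2 decimals, which keep no depth, so no counting interval or floor was set. All 55450 gene identifiers matched GENCODE M21.

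For each comparison, log2(TPM + 1) was fitted with limma 3.58.1 (R 4.3.3, trended prior) on its 12 samples, leaving out genes whose mean was under 1 TPM. The mean was over both lines, so Pmaip1, Trp53 and Ripk3 passed, for calls named here, through the line where they were higher. Benjamini-Hochberg adjustment ran over all genes, and calls needed an adjusted p under 0.05. For low genes the added 1 TPM makes the log2 difference smaller than the true one. The fit was tested on simulated data of independent samples with the WT spread in both lines. That setting does not cover alike pairs or unequal spread between lines. Mcl1 relative to its neighbors was compared by exact permutation over samples. Alternatives were another pseudocount, other filters, scalings and tests, a replicate block, pair means and samples left out.

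Members, lists, named-gene rule, the window around Mcl1 and samples left out were chosen with earlier results of these data known. All members are named, with the 3 largest called differences of each list for HM against WT and the 2 largest for each other comparison. A gene that this rule names is not reported here. Likeness is given for Mcl1 and for the most changed member. Python 3.11.15, numpy 2.4.6, pandas 2.3.3 and matplotlib 3.10.9 were used.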

Additional observations from a re-analysis of the deposited data

How the results depend on the processing

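The main fit called 6, 2 and 2 of the 10 members in the 3 comparisons, so most values followed here were of members not called. Only the called ones could lose a call. Over the alternatives run for the 10 members in 3 comparisons, 274 values kept their direction and side of the threshold, 15 lost the call, 8 gained it and 8 turned sign. For HM against WT they were Bcl2 (0.0855 with centered samples, 0.144 with quantile normalized samples and 0.0464 without HM samples 2 and 3) and Bax (-0.0878 with quantile normalized samples and -0.0503 without HM samples 2 and 3). For HetKO against WT they were Bax (0.0052 with centered samples) and Bcl2l2 (0.0237 without HetKO samples 2 and 5), and for HM against HetKO Bax (-0.0005 without HM samples 2 and 3). With pair means the members called were 2 (HM against WT), 0 (HetKO against WT) and 1 (HM against HetKO), the other apoptosis genes called 14, 0 and 1, and all genes called 3414, 35 and 454, with 3 replicates a line instead of 6. The cause of the other changes was not tested. For HetKO against WT the unequal-variance test called 0 members, 6 other apoptosis genes and 852 of all genes, the replicate block called 7 other apoptosis genes, and leaving out HetKO samples 2 and 5 called 1 member and 6 other apoptosis genes. Where 0 members were called, 2 (limma on pair means) and 3 (unequal-variance test) had an unadjusted p under 0.05. Mcl1 relative to its neighbors gave 0.762 and 0.670 with pair means (HM against WT and HM against HetKO, exact permutation P = 0.1, the smallest possible), and for HetKO against WT -0.0391 without HetKO samples 2 and 5 and -0.0321 against the upper neighbors.

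The split of calls moved with the scaling. For HM against WT 2722 genes were higher and 4498 lower, against 4508 and 2879 with centered samples and 3632 and 3479 with quantile normalized samples, and the median of all genes moved from -0.09 to 0.08 and 0.02. The members were then called 4 higher and 3 lower (centered, with Bid at 0.25, adjusted p = 0.0216 by limma) or 2 and 3 (quantile). For HetKO against WT the split of 519 and 902 became 768 and 748 or 728 and 787, and for HM against HetKO that of 1926 and 2839 became 2961 and 1900 or 2357 and 2424. Samples of equal replicate number in different lines were little correlated (mean 0.005, 0.062 and 0.021 in the 3 comparisons), which cannot exclude a shared batch. Samples 1 and 4 were an alike pair in every line, and Mcl1 was lowest in these samples in every line. The origin of this was not tested. The replicate block ended the call of Bcl2l2 in HM against WT (adjusted p = 0.0531 by limma) and brought that of Mcl1 in HM against HetKO (adjusted p = 0.0221 by limma). Depth is unknown.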
